A study of Mus musculus with 10 samples.

Results

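The 46 genes described here encode the machinery with which the endoplasmic reticulum (ER) takes in, glycosylates, folds and clears proteins of the secretory pathway. They were chosen by gene symbol out of the 17359 genes of the deposited table, and all 46 were in it and passed the filter on low counts. A folding arm of 27 genes holds the chaperones, disulfide isomerases, unfolded protein response genes and degradation factors. An entry arm of 19 genes holds the translocon, the signal peptidase and the oligosaccharyltransferase.

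The libraries came from livers of mice on a high-fat diet, which all 3 groups shared, and the sources used here do not give strain, sex or age. The AL group (n = 3, replicates 2 to 4 by the labels) was the control that ate the diet freely. The LC group (n = 4) was taken on day 3 of a weekly cycle, when calories were cut by 70%, and the RF group (n = 3) on day 7 of it, when feeding was free. In that cycle the cut was 70% on days 2 and 3 and 50% on days 1 and 4, and days 5 to 7 were free, so that the low and the refed phase could each be set against the control. The labels do not say that the samples are separate animals, so a p-value here measures only how these samples spread. The labels also give no batch. Libraries are named by group and replicate number, as AL 3.

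Totals lay between 13871533 and 15899479 expected counts per library, and the RNA integrity numbers of all samples between 6.6 and 8.5. Within a group, libraries correlated across genes, which are not independent replicates, at a Pearson's r of 0.971 to 0.984. No pair of libraries within a group held the same values, with 1.13 to 1.91% of genes equal in a pair. Levels are CPM, in which each library is brought to the same total after weighting by its TMM factor, and a gene is called changed where edgeR's quasi-likelihood test gave an adjusted p below 0.05 over all 12789 genes tested.

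A protein bound for secretion enters the ER through the Sec61 channel, loses its signal peptide to the signal peptidase and receives its glycans from the oligosaccharyltransferase while it is still being made. Chaperones and disulfide isomerases then fold it, and proteins that fail are drawn back to the cytosol and degraded. When unfolded protein accumulates, the sensors IRE1, ATF6 and PERK raise the transcription of this machinery, and the hepatocyte, which secretes most plasma proteins, is rich in it.

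At LC against AL, 29 of the 46 genes fell and 0 rose, and 15.6% of all genes tested fell. The 29 were 63% of the members, split as 17 of 27 in the folding arm and 12 of 19 in the entry arm. In 31 members every LC library lay below every AL library, a pattern that 17.1% of all genes showed. The median log2 change was −0.60 in the folding arm and −0.49 in the entry arm, and 0.05 over all genes. Falls of at least 2-fold were called in 7 folding genes and 0 entry genes, and in 2.6% of all genes. That split depends on the mark, since the entry genes Spcs3 (−0.99) and Ssr3 (−0.93) just missed it and the folding gene Hspa5 (−1.01) just passed. The samples are bulk liver, in which fewer cells of a type and less RNA per cell cannot be told apart. The TMM factors lay between 1.063 and 1.176 at LC, 0.827 and 0.952 at AL, and 0.964 and 0.969 at RF. With libraries scaled to their totals alone, the fall was called in 9 folding and 6 entry genes, and the median of all genes moved from 0.05 to 0.36. Relative to the median of all genes, the arm medians stayed between −0.78 and −0.48 for folding and between −0.64 and −0.42 for entry over all settings tried. The fall was called under all 20 alternatives in 14 genes (Calr, Pdia3, Pdia4, Pdia6, P4hb, Dnajb11, Sdf2l1, Manf, Sec61a1, Ssr3, Spcs3, Rpn1, Ddost and Dad1). By library totals and by limma on FPKM it was not called in Hyou1, Hsp90b1, Canx, Dnajc3, Xbp1, Edem1, Derl1 or Derl2. Nor was it called by them in Ssr1, Ssr2, Ssr4, Sec63, Spcs2 or Stt3a. For Hspa5 the call was lost by limma on FPKM but not by library totals.

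At RF against LC, 25 of the 46 genes rose and 0 fell, and 11.4% of all genes tested rose. They were 15 of 27 folding genes and 10 of 19 entry genes. Every RF library lay above every LC library in 27 members, and in 17.7% of all genes. The median change was 0.53 in the folding arm, 0.59 in the entry arm and −0.02 over all genes. Rises of at least 2-fold were called in 5 genes, all in the folding arm (Hspa5, Hyou1, Pdia4, Sdf2l1 and Manf), and in 2.23% of all genes. The LC libraries enter both of these comparisons, whose values are given side by side. Under at least 1 alternative the rise was not called in 8 of the 25 (Hspa5, P4hb, Dnajb9, Dnajc3, Xbp1, Derl2, Sec63 and Spcs2).

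At RF against AL, edgeR's quasi-likelihood test called 0 of the 46 genes, and 0.0547% of all genes. At an unadjusted p below 0.05, 6 members were lower (4 folding, 2 entry) and 0 higher, and 4.68% of all genes were lower by that mark. DESeq2 called 1 member, Calr, lower. In 7 members every RF library lay below every AL library, a pattern that 9.56% of all genes showed. These were Calr, Pdia6, Erp29, Derl1, Ssr4, Rpn1 and Dad1. The RF mean stood at or above the AL mean in 8 of 27 folding genes and 7 of 19 entry genes, and the LC mean was the lowest of the 3 in 22 and 18.

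**Figure D1:**
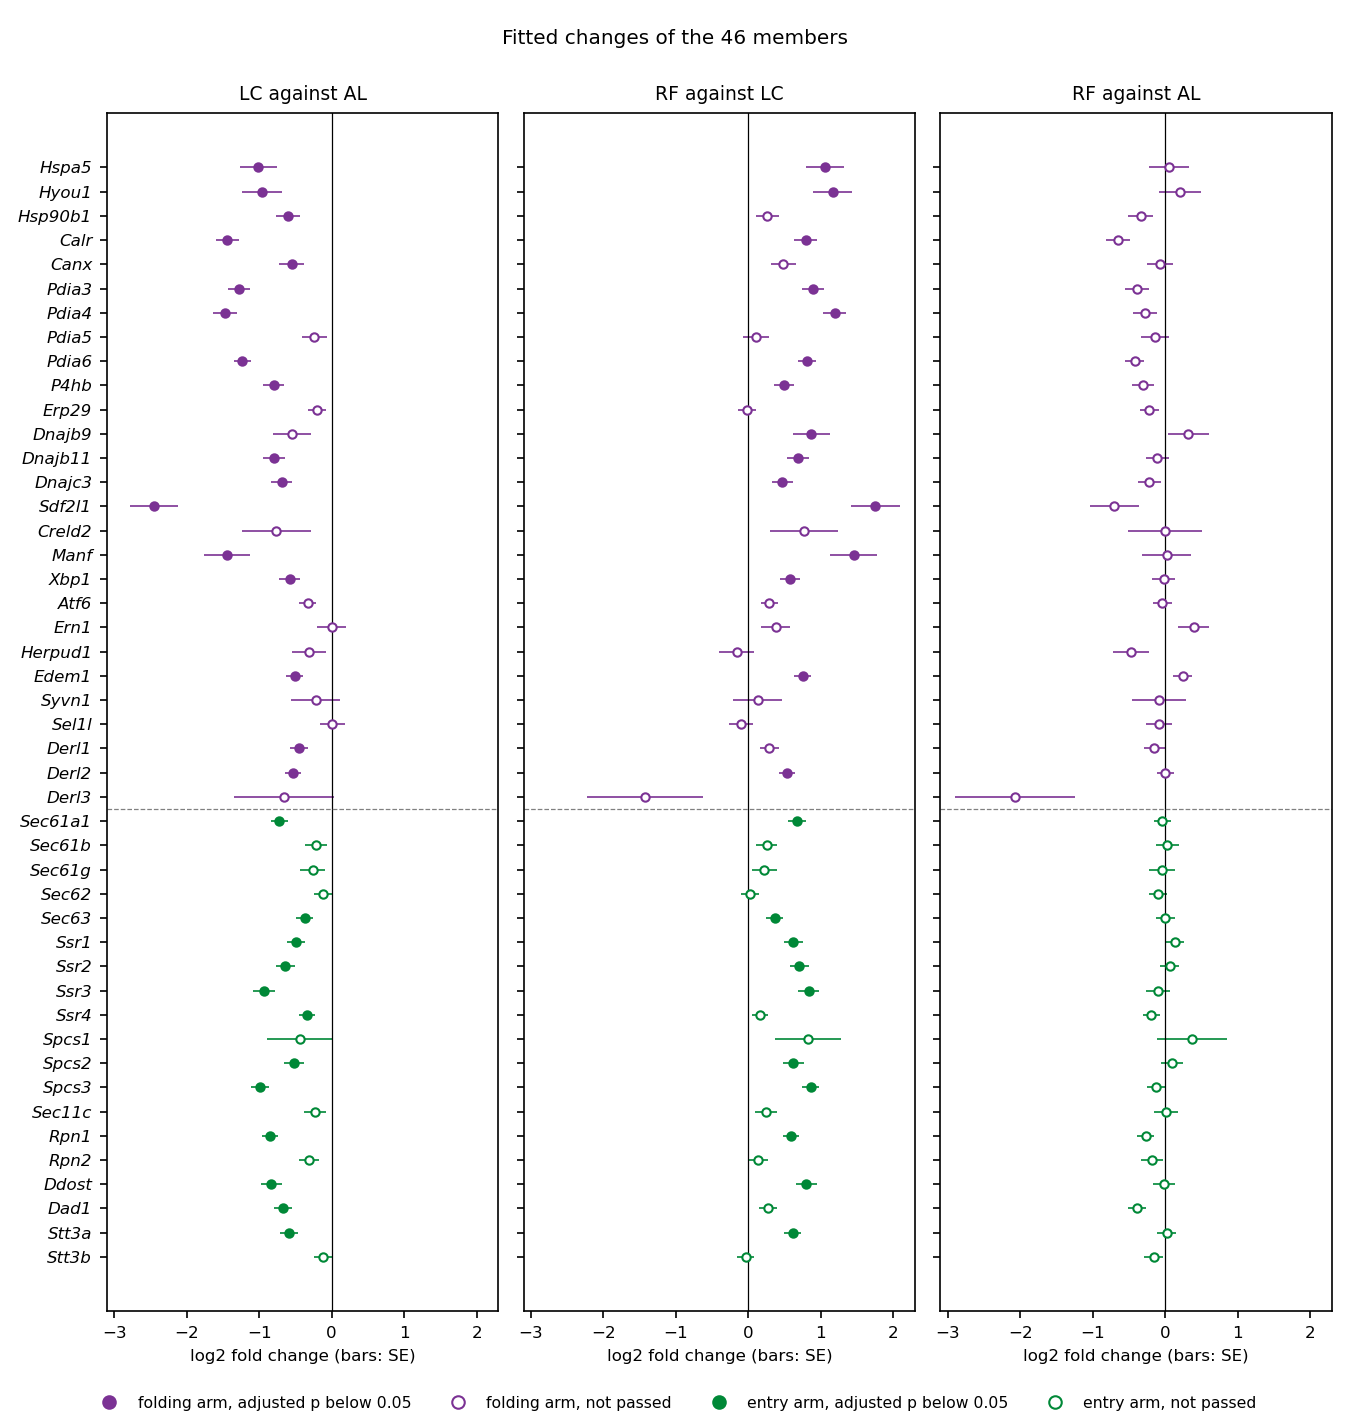
Log2 fold changes of the 46 members in the 3 comparisons on the x axes, with bars for the standard error. Rows follow the members' roles with the 27 folding genes above the dashed line and the 19 entry genes below it, and filled points passed an adjusted p of 0.05. At LC against AL 29 points are filled, all left of 0, at RF against LC 25 are filled, all right of 0, and at RF against AL none is.

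Promoter sequences are shown because the ER stress response element was found in folding genes and in none of the entry genes matched. The motifs were chosen with the expression results known. They are elements of the ER stress response, and the folding arm was listed to hold genes of that response. The contrast between the arms in these motifs was thus partly set by the choice of genes. Promoters from 250 bases before to 50 bases after the start site were read from the RefSeq table of build GRCm38.p6, a different build from that of the counts, and 37 of the 46 members matched by gene ID. The element ERSE, which is CCAAT, any 9 bases and CCACG, is bound by NF-Y at CCAAT and by ATF6 at CCACG. On both strands it was found in 9 of 37 members, or 24.3%, and in 0.176% of the 13634 genes of the count table with a promoter entry. All 9 were among the 22 folding genes matched (40.9%), and 0 of 15 entry genes had it. The related ERSE-II, which is ATTGG, any base and CCACG, and whose ATTGG is CCAAT read on the other strand, was in 2 members, Herpud1 and Dnajb11, and in 0.0733% of genes. The XBP1 site UPRE (TGACGTGG), which can overlap an ERSE read in reverse, was in 0 members and in 0.939% of genes. A match is only a description of the letters. Capitals mark the match in each window below, with positions counted from the start site.
Hspa5, chr2:34772005-34772063, plus strand, bases −85 to −27: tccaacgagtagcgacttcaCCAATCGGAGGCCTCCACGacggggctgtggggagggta
Hsp90b1, chr10:86705513-86705676, minus strand, bases −232 to −69: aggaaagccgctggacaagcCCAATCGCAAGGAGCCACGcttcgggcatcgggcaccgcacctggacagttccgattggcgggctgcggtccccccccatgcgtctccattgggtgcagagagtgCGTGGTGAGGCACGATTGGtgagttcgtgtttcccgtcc
Calr, chr8:84847055-84847113, minus strand, bases −182 to −124: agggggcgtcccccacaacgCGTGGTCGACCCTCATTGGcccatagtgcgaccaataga
Canx, chr11:50325780-50325838, minus strand, bases −165 to −107: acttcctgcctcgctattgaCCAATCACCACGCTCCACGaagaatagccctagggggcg
Pdia6, chr12:17266471-17266529, plus strand, bases −118 to −60: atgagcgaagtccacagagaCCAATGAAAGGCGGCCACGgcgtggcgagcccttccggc
Dnajc3, chr14:118937807-118937865, plus strand, bases −125 to −67: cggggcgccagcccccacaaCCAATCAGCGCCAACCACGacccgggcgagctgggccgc
Creld2, chr15:88819500-88819558, plus strand, bases −146 to −88: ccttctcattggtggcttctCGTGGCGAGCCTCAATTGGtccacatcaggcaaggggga
Syvn1, chr19:6046512-6046570, plus strand, bases −64 to −6: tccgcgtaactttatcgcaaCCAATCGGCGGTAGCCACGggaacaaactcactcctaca
Derl3, chr10:75893222-75893280, plus strand, bases −176 to −118: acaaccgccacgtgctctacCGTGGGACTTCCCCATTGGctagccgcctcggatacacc
Herpud1, chr8:94386357-94386407, plus strand, bases −72 to −22: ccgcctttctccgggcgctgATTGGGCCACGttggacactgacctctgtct
Sdf2l1, chr16:17132384-17132533, minus strand, bases −150 to −1: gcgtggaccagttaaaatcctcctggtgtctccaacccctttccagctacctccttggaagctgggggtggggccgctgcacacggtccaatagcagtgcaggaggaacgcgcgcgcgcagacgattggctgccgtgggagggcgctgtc

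Calr, Creld2 and Derl3 hold the element on the strand opposite to the gene, and Hsp90b1 holds it once on each strand. Of the 9 genes with ERSE, 6 fell at LC (Hspa5, Hsp90b1, Calr, Canx, Pdia6 and Dnajc3), with a median of −0.69, and 4 rose at RF against LC. Of the 11 folding genes matched with neither form, 7 fell at LC, with a median of −0.55, and so did 9 of the 15 entry genes matched, with a median of −0.44. The rise at RF against LC was called in 8 of these 11 folding genes and in 7 of the 15 entry genes. Over all genes tested, 15.6% fell at LC against AL, with a median of 0.05, and 11.4% rose at RF against LC. The sets with and without the element are small, and no difference between them was tested. Sdf2l1 had no match in its window and fell by 2.45 on the log2 scale, the largest fall of all members.

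The main folding chaperones of the ER are BiP, its relative HYOU1 and GRP94. Hspa5, the gene of BiP, an HSP70 protein that also holds the stress sensors inactive, stood at 512, 586 and 321 CPM in AL, 203, 269, 206 and 258 CPM in LC and 296, 500 and 668 CPM in RF. All 4 LC libraries lay below all AL and RF libraries, and RF ranged more widely than AL. The change was −1.01 (SE 0.26, adjusted p = 0.013) at LC against AL and 1.06 (SE 0.26, adjusted p = 0.015) at RF against LC. The first call was lost with AL 3 left out (adjusted p = 0.067) and the second with RF 3 left out (adjusted p = 0.061).

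Hyou1, which recharges BiP with nucleotide, had 76.8, 68.2 and 35.4 CPM in AL, 33.5, 30.7, 29.2 and 30.5 CPM in LC and 46.8, 63.8 and 97.2 CPM in RF. AL replicate 4 was only just above the LC range. Hyou1 fell by 0.96 (SE 0.27, adjusted p = 0.021) at LC and rose by 1.16 (SE 0.27, adjusted p = 0.013) at RF. Its fall did not pass with AL 2 or AL 3 left out (adjusted p = 0.08 to 0.088). Hsp90b1, the gene of GRP94, which folds integrins and Toll-like receptors, had 926, 744 and 577 CPM in AL, 482, 528, 491 and 475 CPM in LC and 507, 597 and 669 CPM in RF. LC was below AL in every library, whereas RF overlapped both, with −0.60 (SE 0.16, adjusted p = 0.012) at LC and 0.26 (SE 0.16, adjusted p = 0.26) at RF against LC.

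The lectin chaperones calreticulin and calnexin hold glycoproteins with a trimmed glycan while they fold. Calr, the soluble one, had 624, 594 and 469 CPM in AL, 242, 230, 192 and 166 CPM in LC and 336, 326 and 415 CPM in RF. The 3 groups did not overlap, with LC lowest and RF between LC and AL. Its change was −1.44 (SE 0.16, adjusted p = 0.00016) at LC, 0.79 (SE 0.16, adjusted p = 0.005) at RF against LC and −0.65 (SE 0.17, adjusted p = 0.24) at RF against AL. The last was called by DESeq2 (−0.67, adjusted p = 0.039) and by no other setting.

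Canx, the membrane-bound one, had 150, 222 and 200 CPM in AL, 104, 129, 122 and 167 CPM in LC and 173, 183 and 189 CPM in RF. LC replicate 4, at 167, lay above AL replicate 2, at 150, so LC and AL overlapped. It fell by 0.55 (SE 0.17, adjusted p = 0.023) at LC, but not with AL 3, AL 4, LC 1 or LC 3 left out (adjusted p = 0.054 to 0.13). Its RF value against LC was 0.48 (SE 0.17, adjusted p = 0.054). Within a library, the FPKM of Calr over that of Canx was 9.83, 6.36 and 5.57 at AL, 5.49, 4.22, 3.74 and 2.36 at LC, and 4.59, 4.23 and 5.2 at RF. This ratio needs no scaling between libraries, and it was lower at both LC and RF than in every AL library.

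Of the 6 disulfide isomerases, 4 fell at LC, beside 15.6% of all genes. The same 4 (Pdia3, Pdia4, Pdia6 and P4hb) rose at RF against LC, beside 11.4% of all genes. Pdia4 had 124, 147 and 106 CPM in AL, 47.9, 45.6, 48.1 and 39.9 CPM in LC and 89.3, 89.5 and 131 CPM in RF. LC lay far below both other groups, which overlapped, and the change was −1.47 (SE 0.16, adjusted p = 0.00016) at LC and 1.19 (SE 0.16, adjusted p = 0.00065) at RF against LC. Pdia6, which also binds IRE1, had 190, 208 and 191 CPM in AL, 78.6, 85.1, 88.3 and 83.7 CPM in LC and 131, 143 and 166 CPM in RF. No groups overlapped, with RF between the others, and the changes were −1.23 (SE 0.12, adjusted p = 0.00014) and 0.81 (SE 0.12, adjusted p = 0.001). Its RF value against AL was −0.42 (SE 0.13, adjusted p = 0.27).

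Pdia3, the partner of calreticulin and calnexin, had 503, 479 and 352 CPM in AL, 191, 187, 205 and 151 CPM in LC and 316, 332 and 371 CPM in RF, and all LC libraries lay below the rest, with −1.28 (SE 0.15, adjusted p = 0.00021) at LC and 0.89 (SE 0.15, adjusted p = 0.0021) at RF against LC. P4hb, the isomerase PDI itself and a subunit of the triglyceride transfer protein that assembles lipoproteins, was the member with the highest level per length at AL, at 413 ± 34.7 FPKM. It had 1025, 1344 and 1248 CPM in AL, 665, 739, 609 and 766 CPM in LC and 895, 965 and 1058 CPM in RF. LC was lowest throughout, with −0.80 (SE 0.14, adjusted p = 0.0013), and the rise at RF was 0.49 (SE 0.14, adjusted p = 0.024). That rise did not pass with LC 1, LC 3, RF 2 or RF 3 left out (adjusted p = 0.055 to 0.1).

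The other isomerase-like genes did not pass. Erp29, which has the fold but lacks the active site of an isomerase, had 50.4, 48.8 and 46.5 CPM in AL, 38.4, 38.5, 44 and 48.1 CPM in LC and 40.1, 40.6 and 44 CPM in RF, with −0.20 (SE 0.12, adjusted p = 0.21) at LC. Pdia5 gave −0.24 (SE 0.17, adjusted p = 0.32), and LC replicate 2, at 75.5, stood within the AL range. The ratio of Pdia6 to Erp29 FPKM was 2.11 ± 0.127 (SD) in the 3 AL libraries, 1.05 ± 0.101 in the 4 LC libraries and 1.84 ± 0.133 in the 3 RF libraries. LC did not overlap either group. The pair was chosen with the fold changes known, so this is a description. Exons of Erp29 overlap Naa25 (up to 1586 bases) and Tmem116 (180) on the opposite strand. Those of Pdia3 overlap Catsper2 (18) and those of Pdia6 Atp6v1c2 (50), also opposite. Only reads inside these stretches cannot be told apart without strand.

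J-domain proteins deliver clients to BiP and set off its ATP cycle. Dnajb11 had 95.9, 83.3 and 70.4 CPM in AL, 45.2, 47.5, 45.5 and 54.2 CPM in LC and 64.1, 75.5 and 91.6 CPM in RF, with LC below all others. It fell by 0.79 (SE 0.15, adjusted p = 0.0018) at LC and rose by 0.68 (SE 0.15, adjusted p = 0.0063) at RF. Dnajc3, known as P58IPK for its link to kinase inhibition, fell by 0.69 (SE 0.15, adjusted p = 0.0041) at LC and rose by 0.47 (SE 0.15, adjusted p = 0.036) at RF, but the rise did not pass with LC 1, LC 2, RF 2 or RF 3 left out (adjusted p = 0.076 to 0.18). Dnajb9, a repressor of IRE1, had 30.5, 34.8 and 26.6 CPM in AL, 16.6, 21.9, 19.9 and 25 CPM in LC and 22.4, 34.8 and 57.1 CPM in RF. LC lay below AL in every library but the value of −0.55 (SE 0.26, adjusted p = 0.13) did not pass. The rise at RF was 0.87 (SE 0.26, adjusted p = 0.034) and did not pass with AL 2, LC 1, LC 2, LC 3, RF 2 or RF 3 left out (adjusted p = 0.05 to 0.15). RF replicate 3 was far above the other RF libraries.

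Of 3 small ER proteins that stress induces, 2 fell at LC and rose at RF against LC, beside 15.6% and 11.4% of all genes. Sdf2l1, which keeps clients of BiP and Dnajb11 from aggregating, had 24.8, 18.5 and 13.4 CPM in AL, 4.52, 3.2, 3.5 and 2.57 CPM in LC and 8.6, 7.46 and 18.9 CPM in RF. LC stood far under both other groups, and AL and RF overlapped through RF replicate 3 alone. The change was −2.45 (SE 0.33, adjusted p = 0.0006) at LC, 1.75 (SE 0.34, adjusted p = 0.0051) at RF against LC and −0.70 (SE 0.34, adjusted p = 0.48) at RF against AL.

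Manf, a cofactor of BiP that is also secreted, had 118, 90.8 and 47 CPM in AL, 28.5, 34.2, 30 and 33.3 CPM in LC and 50.3, 90.5 and 118 CPM in RF. LC was lowest in every library, while AL and RF each spanned more than 2-fold. Manf changed by −1.44 (SE 0.32, adjusted p = 0.0087) at LC and by 1.45 (SE 0.32, adjusted p = 0.012) at RF. Its exons overlap a neighbour on the same strand, Rbm15b, by up to 14 bases, so some reads may be shared. Creld2, of the same class, had 40.8, 27 and 17.4 CPM in AL, 15.9, 14, 13.9 and 23.1 CPM in LC and 11.6, 23.2 and 50.4 CPM in RF. All 3 groups overlapped, and the LC value of −0.76 (SE 0.48, adjusted p = 0.26) did not pass.

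Of the stress sensors and factors, 1 of 3 fell at LC, beside 15.6% of all genes. Xbp1, whose messenger RNA is spliced by IRE1 to give the active factor, had 173, 154 and 144 CPM in AL, 96.5, 114, 99 and 110 CPM in LC and 151, 125 and 189 CPM in RF. LC lay below AL and RF in every library, with −0.58 (SE 0.14, adjusted p = 0.0087) at LC and 0.57 (SE 0.14, adjusted p = 0.015) at RF, and the rise did not pass with RF 3 left out (adjusted p = 0.089). The deposited values are per gene and do not separate the spliced from the unspliced form. Atf6 had 48, 55.2 and 50.3 CPM in AL, 37.6, 37.3, 45.8 and 42.1 CPM in LC and 43.6, 51.9 and 54.2 CPM in RF. LC was below AL in every library, but the value of −0.33 (SE 0.12, adjusted p = 0.056) did not pass, although it did under 5 of 20 other settings. Ern1, the gene of IRE1, was the member with the lowest level per length at AL, at 3.31 ± 0.972 FPKM, and its LC value was 0.00 (SE 0.20, adjusted p = 0.99), with all groups overlapping.

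Of 7 degradation factors 3 fell at LC, and 2 rose at RF against LC, beside 15.6% and 11.4% of all genes. Edem1, a lectin that sends misfolded glycoproteins to degradation, had 129, 113 and 111 CPM in AL, 80.7, 82.2, 83.5 and 84.6 CPM in LC and 119, 141 and 157 CPM in RF. The 4 LC libraries lay close together and below all others, with −0.51 (SE 0.12, adjusted p = 0.0073) at LC and 0.75 (SE 0.12, adjusted p = 0.0017) at RF against LC. Derl2, a membrane protein of the retrotranslocation complex, had 133, 126 and 115 CPM in AL, 96.8, 83.6, 79.9 and 84.4 CPM in LC and 128, 126 and 119 CPM in RF, with LC below the rest, and changed by −0.53 (SE 0.11, adjusted p = 0.0041) and 0.53 (SE 0.11, adjusted p = 0.0065). Derl2 overlaps the opposite-strand gene Mis12 by up to 231 bases of exon, and reads without strand cannot be assigned inside that stretch. Derl1 fell by 0.45 (SE 0.13, adjusted p = 0.019) at LC, but not with AL 3, AL 4 or LC 1 left out (adjusted p = 0.054 to 0.067).

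The ubiquitin ligase of this pathway and its scaffold did not pass. Sel1l, the scaffold, had 159, 123 and 102 CPM in AL, 133, 118, 119 and 146 CPM in LC and 106, 109 and 147 CPM in RF, with all groups overlapping and 0.01 (SE 0.17, adjusted p = 0.96) at LC. Syvn1, the ligase HRD1, had 144, 84 and 56.6 CPM in AL, 109, 73.6, 68.6 and 75.4 CPM in LC and 76, 61.8 and 130 CPM in RF. AL replicate 2, LC replicate 1 and RF replicate 3 were each far above the rest of their group, and the LC value was −0.22 (SE 0.34, adjusted p = 0.66). Syvn1 overlaps Mrpl49 on the opposite strand. The FPKM of Derl2 over that of Sel1l was 1.74 ± 0.27 at AL, 1.16 ± 0.116 at LC and 1.84 ± 0.377 at RF, and LC did not overlap either.

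Herpud1, a membrane protein of this ligase complex, had 625, 567 and 422 CPM in AL, 341, 466, 447 and 482 CPM in LC and 268, 327 and 567 CPM in RF. LC overlapped AL, with −0.31 (SE 0.23, adjusted p = 0.33), and the lowest libraries were at RF, with −0.47 (SE 0.25, adjusted p = 0.52) at RF against AL. Derl3, the inducible Derlin, had the lowest mean CPM of the members, at 9.42, 3.51 and 1.38 CPM in AL, 3.08, 1.72, 4.63 and 2.64 CPM in LC and 0.498, 0.333 and 2.54 CPM in RF. Its values overlapped between all groups, and the fitted RF change of −2.07 (SE 0.83, adjusted p = 0.42) against AL rested on few counts.

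**Figure D2:**
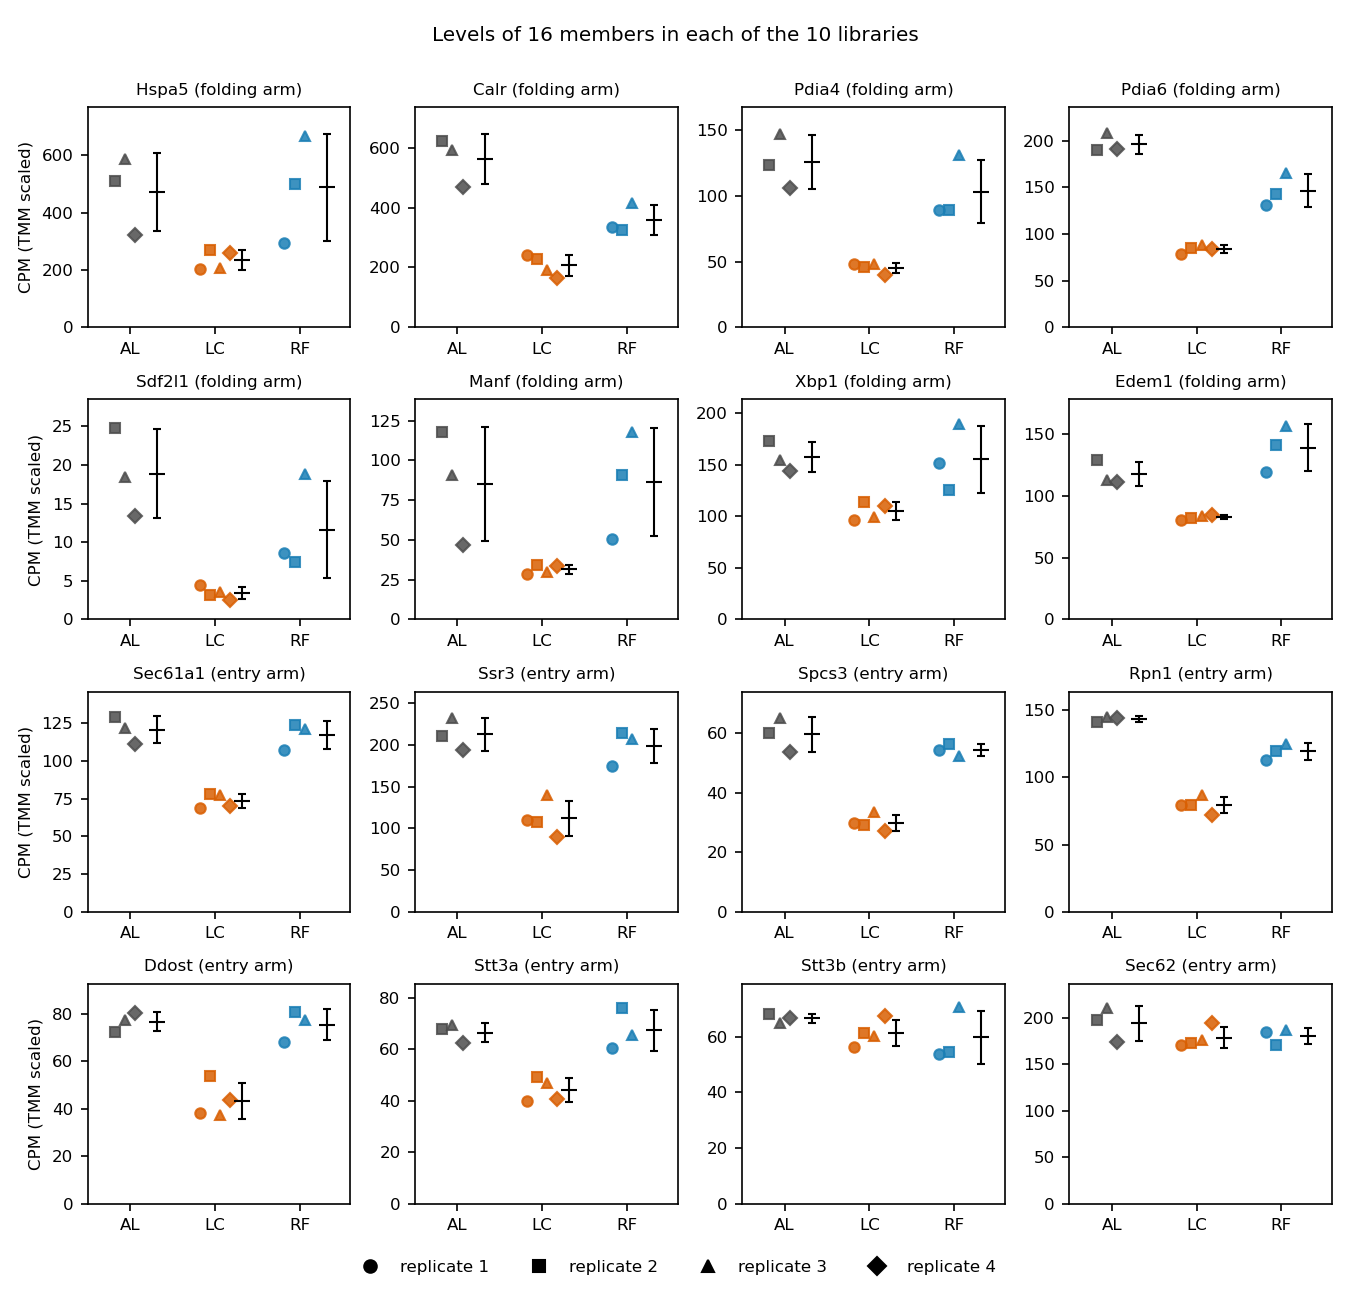
CPM (y axis, from 0) of 16 members in each library, by group on the x axis, with marker shape for the replicate number and a bar for the mean and SD beside the points. In 14 of the 16 panels every LC point lies below every AL point, the exceptions being Stt3b and Sec62. The 16 panels are a selection, and over all 46 members this held in 31, against 17.1% of all genes tested.

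In the entry arm, the Sec61 channel is made of 3 subunits, of which the alpha subunit forms the pore. Sec61a1, the pore, had 129, 122 and 111 CPM in AL, 68.6, 78.1, 77.1 and 70.3 CPM in LC and 107, 124 and 121 CPM in RF. LC was below the other groups in every library, and AL and RF overlapped, with −0.72 (SE 0.12, adjusted p = 0.00086) at LC and 0.67 (SE 0.12, adjusted p = 0.0021) at RF against LC. The small subunits gave −0.22 (SE 0.15, adjusted p = 0.28) for Sec61b and −0.26 (SE 0.17, adjusted p = 0.25) for Sec61g at LC, and neither passed.

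Sec62 and Sec63 help proteins enter after their synthesis is complete, and Sec63 brings BiP to the channel. Sec62 had 198, 211 and 174 CPM in AL, 171, 173, 176 and 195 CPM in LC and 185, 171 and 187 CPM in RF, with all groups overlapping and −0.12 (SE 0.12, adjusted p = 0.46) at LC. Sec63 fell by 0.37 (SE 0.12, adjusted p = 0.033) at LC and rose by 0.36 (SE 0.12, adjusted p = 0.045) at RF. Its fall did not pass with AL 3, AL 4 or LC 1 left out (adjusted p = 0.06 to 0.14). Its rise did not pass with AL 3, AL 4, LC 1, LC 2, LC 3, RF 1, RF 2 or RF 3 left out (adjusted p = 0.055 to 0.15). The FPKM of Sec61a1 over that of Sec62 was 0.82 ± 0.0434 at AL, 0.532 ± 0.057 at LC and 0.858 ± 0.0998 at RF, with LC apart from both. The FPKM of Sec61a1 over that of Sec61b, within the channel itself, was 0.223 ± 0.0224, 0.165 ± 0.0358 and 0.215 ± 0.00905 in the same order, and LC overlapped both other groups.

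The translocon-associated protein complex (TRAP) sits beside Sec61 and helps weak signal peptides to open it. All 4 of its genes fell at LC, and 3 rose at RF against LC, beside 15.6% and 11.4% of all genes. Ssr3 had 211, 233 and 194 CPM in AL, 110, 108, 140 and 89.7 CPM in LC and 175, 214 and 207 CPM in RF. LC lay below AL and RF without overlap, with −0.93 (SE 0.15, adjusted p = 0.00089) and 0.83 (SE 0.15, adjusted p = 0.0028). Ssr2 changed by −0.64 (SE 0.13, adjusted p = 0.0026) at LC and 0.70 (SE 0.13, adjusted p = 0.0027) at RF, and Ssr1 by −0.49 (SE 0.13, adjusted p = 0.01) and 0.62 (SE 0.13, adjusted p = 0.0049).

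Ssr4 had 82.5, 88.4 and 89.8 CPM in AL, 63.3, 67, 67 and 76.4 CPM in LC and 71.9, 75.4 and 81.3 CPM in RF. Its fall at LC, −0.34 (SE 0.11, adjusted p = 0.031), was the smallest of the 4 and did not pass with AL 3, AL 4, LC 1, LC 2 or LC 3 left out (adjusted p = 0.055 to 0.1). Its RF value against LC was 0.16 (SE 0.11, adjusted p = 0.34). By library totals and by limma on FPKM, the falls of Ssr1, Ssr2 and Ssr4 were not called. The FPKM of Ssr3 over that of Ssr4 was 0.516 ± 0.0561 at AL, 0.352 ± 0.0781 at LC and 0.553 ± 0.0426 at RF, and LC did not overlap either group.

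The signal peptidase cuts the signal peptide, with SEC11 proteins as its catalytic part. Spcs3, an accessory subunit needed for cutting, had 60, 65.3 and 53.7 CPM in AL, 30, 29.1, 33.6 and 27.1 CPM in LC and 54.4, 56.3 and 52.5 CPM in RF. LC lay far below the other groups, which overlapped, with −0.99 (SE 0.12, adjusted p = 0.00018) at LC and 0.86 (SE 0.12, adjusted p = 0.00068) at RF against LC. This was the largest fall of the entry arm. Spcs2 fell by 0.52 (SE 0.14, adjusted p = 0.011) at LC, but not with AL 3 left out (adjusted p = 0.058), and rose by 0.62 (SE 0.14, adjusted p = 0.0073) at RF.

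Sec11c, a catalytic subunit, gave −0.23 (SE 0.15, adjusted p = 0.27) at LC and did not pass. Spcs1 had 14.9, 35.7 and 44.1 CPM in AL, 12, 24, 16.6 and 40.3 CPM in LC and 33.2, 46 and 43.4 CPM in RF. Its AL and LC libraries spread widely and overlapped, and the LC value of −0.44 (SE 0.45, adjusted p = 0.49) did not pass. Spcs1 overlaps Glt8d1 on the opposite strand by up to 223 bases of exon, and reads inside that stretch cannot be told apart.

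The oligosaccharyltransferase transfers a preassembled glycan to asparagines, through the catalytic subunit STT3A at the translocon or STT3B for sites missed there. Stt3a had 67.7, 69.3 and 62.2 CPM in AL, 39.8, 49.1, 46.7 and 40.7 CPM in LC and 60.4, 75.8 and 65.6 CPM in RF. LC lay below both groups without overlap, with −0.59 (SE 0.12, adjusted p = 0.0034) at LC and 0.61 (SE 0.12, adjusted p = 0.0048) at RF against LC. Stt3b had 68.3, 65 and 66.6 CPM in AL, 56.1, 61.4, 60.4 and 67.3 CPM in LC and 53.8, 54.5 and 70.8 CPM in RF. Its groups overlapped, with −0.12 (SE 0.12, adjusted p = 0.48) at LC and −0.04 (SE 0.12, adjusted p = 0.86) at RF against LC. The FPKM of Stt3a over that of Stt3b was 0.736, 0.791 and 0.693 at AL, 0.527, 0.594, 0.574 and 0.45 at LC, and 0.833, 1.03 and 0.688 at RF. Every LC ratio was below every AL and RF ratio.

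Of the shared subunits, 3 of 4 fell at LC, beside 15.6% of all genes. Rpn1 had 141, 145 and 144 CPM in AL, 79.2, 79.8, 86.7 and 72.1 CPM in LC and 113, 120 and 125 CPM in RF. AL was tight, no groups overlapped, and RF lay between, with −0.85 (SE 0.11, adjusted p = 0.0003) at LC, 0.59 (SE 0.11, adjusted p = 0.0033) at RF against LC and −0.27 (SE 0.12, adjusted p = 0.44) at RF against AL. Ddost had 72.4, 77.3 and 80.1 CPM in AL, 38.1, 53.6, 37.4 and 43.6 CPM in LC and 68.1, 80.6 and 77.4 CPM in RF, with LC below the rest, and changed by −0.83 (SE 0.14, adjusted p = 0.001) and 0.80 (SE 0.14, adjusted p = 0.0021).

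Dad1, named as a defender against cell death, had 51.7, 62.3 and 64.6 CPM in AL, 37.3, 37.8, 36 and 38.9 CPM in LC and 40.5, 45.7 and 50 CPM in RF. LC lay below RF and RF below AL, without overlap. It fell by 0.67 (SE 0.12, adjusted p = 0.0015) at LC, while RF stood at 0.27 (SE 0.12, adjusted p = 0.12) against LC and −0.39 (SE 0.13, adjusted p = 0.32) against AL, neither of which passed. Rpn2, at −0.31 (SE 0.14, adjusted p = 0.11), did not pass. LC replicate 4 equalled the lowest AL library at 114 CPM to 3 digits, and Rpn2 overlaps Mroh8 on the opposite strand.

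**Figure D3:**
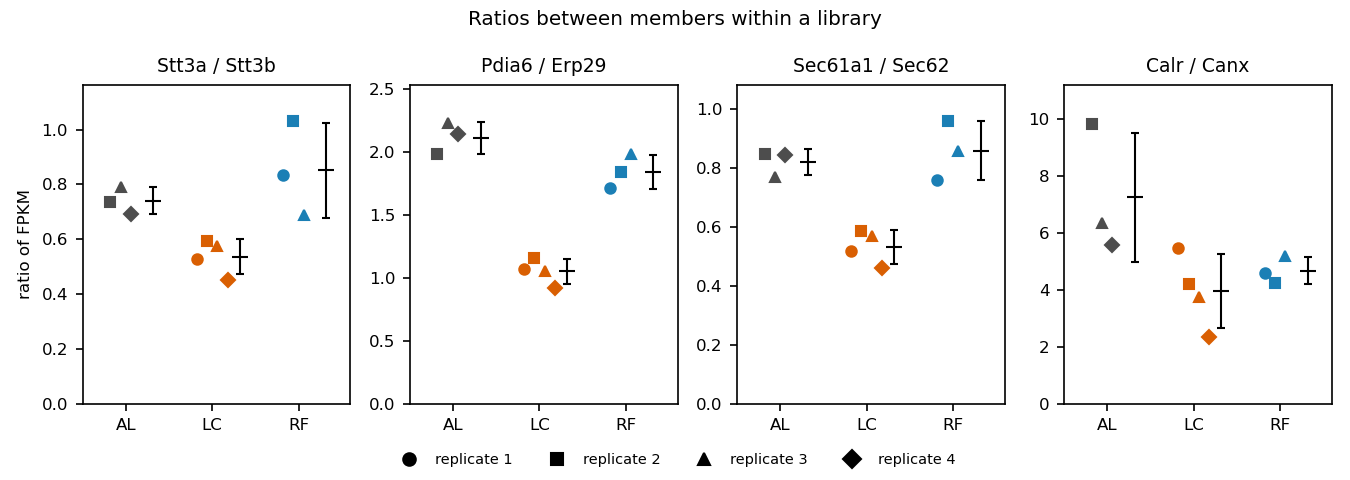
Ratio of the FPKM of 2 members within each library (y axis, from 0) for 4 pairs, by group on the x axis, with marker shape for the replicate number and a bar for the mean and SD. The pairs were chosen with the fold changes known, so they are a description. The LC points lie below every AL point in all 4 panels, and the RF points of Calr over Canx do so too.

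The arms differed in how much they varied between libraries of a group. Averaged over its genes on the log2 CPM scale, the folding arm had means of 6.78 ± 0.26 (SD) over the 3 AL libraries, 6.06 ± 0.03 over the 4 LC libraries and 6.55 ± 0.33 over the 3 RF libraries. Those of the entry arm were 6.27 ± 0.05, 5.76 ± 0.09 and 6.23 ± 0.10 in the same order. Relative to the AL mean, the folding arm was at 0.22, 0.07 and −0.28 in the AL libraries, −0.75, −0.73, −0.70 and −0.67 at LC, and −0.48, −0.33 and 0.14 at RF. The entry arm was at −0.03, 0.05 and −0.02 at AL, −0.61, −0.45, −0.56 and −0.43 at LC, and −0.16, −0.01 and 0.04 at RF. The folding libraries spread widely at AL and RF and lay close together at LC, and in both arms every LC library was below every other library. The entry mean minus the folding mean in a library ran from −0.75 to −0.24 at AL and from −0.36 to −0.22 at LC. At RF it ran from −0.61 to −0.18, and the groups overlapped. No test was made of this distance between the arms.

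**Figure D4:**
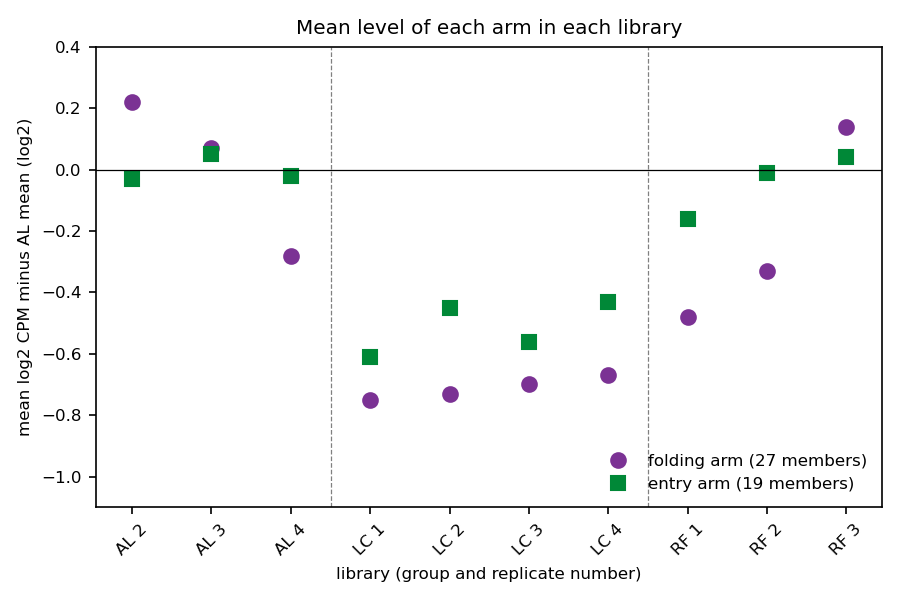
Mean log2 CPM of each arm minus its AL mean (y axis) in each of the 10 libraries (x axis), with circles for the 27 folding genes and squares for the 19 entry genes. The squares at AL and RF stay between −0.16 and 0.05, and the circles there range from −0.48 to 0.22.

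Gene by gene, the folding genes had the higher median spread in every group, at LC too, where the mean of the arm varied less than that of the entry arm. The median coefficient of variation of the folding genes was 16.3% at AL, 12.6% at LC and 19% at RF, and that of the entry genes 7.43%, 9.77% and 8.63%. Over the 7869 genes averaging 10 CPM or more it was 12.4%, 13.7% and 9.38%. A coefficient of 30% or more was found in 6 of 27 folding genes at AL (22.2%), 1 at LC (3.7%) and 9 at RF (33.3%). Of the 7869 genes, 6.66%, 6.93% and 5.48% had it in the same order. The 1 at LC was Derl3, which averaged 3.02 CPM there and had such a coefficient in all 3 groups.

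The libraries that were high or low were the same for many folding genes. Within RF, replicate 3 was the highest in 24 of 27 folding genes (88.9%), including Hspa5, Hyou1, Manf, Creld2, Dnajb9 and Sdf2l1, and in 33.4% of the 7869 genes. Replicate 1 was the lowest in 20 of 27 (74.1%, against 33.8%). Within AL, replicate 2 was the highest in 18 (66.7%, against 39.2%) and replicate 4 the lowest in 20 (74.1%, against 35.4%). In the entry arm, RF replicate 3 was the highest in 11 of 19 genes and RF replicate 1 the lowest in 14, while at AL no library was the highest in more than 8. Genes of 1 arm within a library are not independent replicates. Without RF replicate 3, the rise at RF against LC was called in 10 folding genes, not 15, and in 9 entry genes, not 10.

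**Figure D5:**
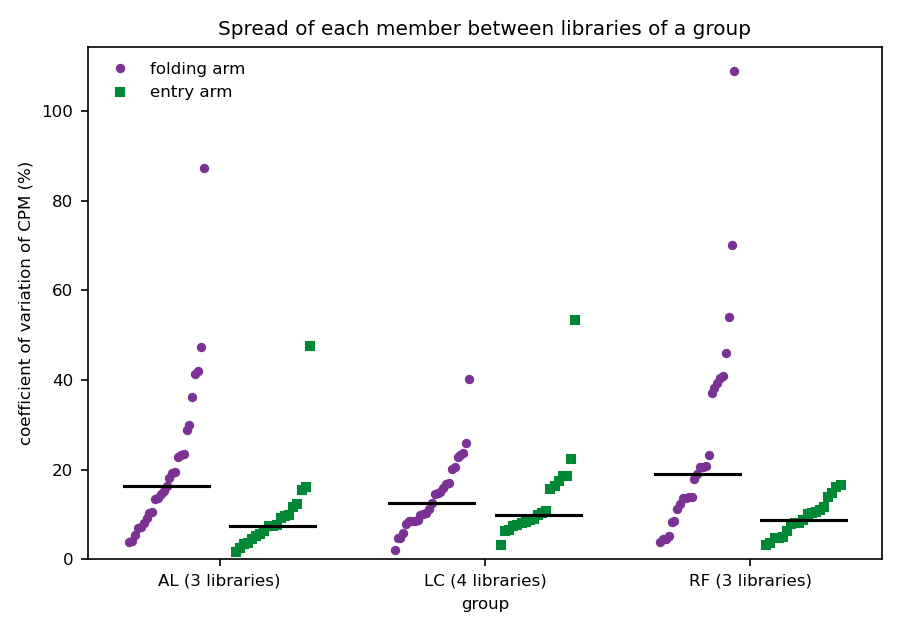
Coefficient of variation of CPM (y axis, percent) of each member between the libraries of a group (x axis), with circles for folding genes, squares for entry genes, sorted within each arm, and a line at the median. The folding medians are 16.3% at AL and 19% at RF, against 7.43% and 8.63% for entry, and at LC they are 12.6% and 9.77%.

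Other genes of the same pathways were listed by function, apart from the 46. Of 181 tested, 70 fell at LC against AL (38.7%, against 15.6% of all genes) and 4 rose (2.21%, against 16%). At RF against LC, 60 rose (33.1%, against 11.4%) and 4 fell (2.21%, against 10.7%). At RF against AL 0 were called, and 0.0547% of all genes. There 9 of the 181 were lower and 5 higher at an unadjusted p below 0.05, against 599 and 782 of all 12789 genes. The oligosaccharyltransferase subunits outside the members fell in 5 of 6 cases, with Ost4 at −0.92 (SE 0.18, adjusted p = 0.0023), and KDEL receptors and the retrieval coat in 10 of 13. Of 12 other proteins at the translocon, 5 fell, among them Tram1 at −0.94 (SE 0.11, adjusted p = 0.00018), and of 23 genes of dolichol-linked glycan synthesis 9 fell, led by Alg14 at −1.20 (SE 0.16, adjusted p = 0.00036). The fall was called in 8 of 14 genes of tail-anchor and EMC insertion, 7 of 16 other oxidoreductases, 6 of 14 genes of glycan trimming and 6 of 18 other folding factors. It was called in 4 of 16 other factors of ER-associated degradation, 2 of 10 genes of sugar nucleotide supply and 1 of 7 of the signal recognition particle and its receptor. Of 17 genes of the COPII coat and its cargo receptors 6 fell, led by Sec13 (adjusted p = 0.00028). Fewer passed among 15 other unfolded protein response regulators, where Tmbim6 fell by 0.66 (adjusted p = 0.0033) and Atf4 rose.

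The 4 genes that rose at LC were named after their values were seen. Atf4, the factor of the PERK branch and of the amino acid response, averaged 108 ± 12.8 CPM in AL, 154 ± 27.2 CPM in LC and 105 ± 11.6 CPM in RF, with 0.51 (SE 0.15, adjusted p = 0.022) at LC and −0.55 (SE 0.15, adjusted p = 0.022) at RF against LC. Ddit3, a target of it and likewise chosen afterwards, gave 0.00 (SE 0.25, adjusted p = 0.99) and did not pass. Sec61a2, the second pore subunit of the channel, had 13.3, 8.27 and 10.1 CPM in AL, 19.5, 19.8, 16.2 and 17.4 CPM in LC and 14.5, 14.2 and 10.2 CPM in RF. LC was above both AL and RF in every library, with 0.78 (SE 0.18, adjusted p = 0.0062) at LC, the opposite sign to Sec61a1. The others were Get1 (1.02), which averaged 1.86 ± 0.268 CPM in AL, and Uap1l1 (0.82).

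Markers of cell types moved with these groups, and their part in the results was not tested. Of all genes tested, 15.6% fell and 16% rose at LC against AL, and 11.4% rose and 10.7% fell at RF against LC. The tissue was hepatic by its markers, and 7 of 9 hepatocyte genes fell at LC, with a median log2 change of −0.49. Their summed levels were 98286 to 113523 CPM for AL, 67004 to 77936 for LC and 87966 to 94097 for RF. Endothelial markers summed to 228 to 241 CPM for AL, 340 to 366 for LC and 303 to 355 for RF, and 4 of 10 rose at LC. Of the plasma cell and B cell markers, 1 of 6 tested fell at LC, with sums of 162 to 215, 112 to 149 and 148 to 255 CPM. That gene was Sdc1, which averaged 186 ± 28.2 CPM in AL, while Jchain averaged 1.87 ± 0.125 CPM there, Mzb1 0.317 ± 0.147 CPM, and Tnfrsf17 was at 0 in AL and RF. Only 1 of 11 pancreatic acinar genes passed the filter, and the sums were 14.1 to 20.8 CPM for AL, 6.95 to 20.7 for LC and 24.1 to 28.6 for RF, where every library was above all others. At LC, 2 of 10 stellate cell and fibroblast markers fell, 1 of 10 Kupffer markers fell and 1 of 5 cholangiocyte markers rose. At RF against LC, 6 of 10 stellate cell and fibroblast markers rose, with a median of 0.61 and sums of 329 to 347 CPM for AL, 251 to 343 for LC and 391 to 456 for RF. In that comparison 5 of 9 hepatocyte markers rose, 3 of 10 endothelial markers rose and 2 fell, and 1 of 10 Kupffer, 1 of 6 plasma and B cell and 0 of 5 cholangiocyte markers rose.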

How the data were processed

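Liver RNA of 10 samples was enriched for poly(A) tails and sequenced without strand on the DNBSEQ platform, per the labels. For each sample the authors deposited expected counts, which are estimated counts per gene and need not be whole (10.9% of values were not). The authors also deposited FPKM values, which are fragments scaled by gene length and depth. The submitters' processing notes name HISAT, Bowtie2 and build GRCm39, with no version or role. The sources used here do not say which program made the counts.

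Expected counts were rounded, filtered with filterByExpr (12789 of 17359 genes kept) and scaled with TMM factors. Groups were compared in R 4.3.3 with the robust glmQLFit of edgeR 4.0.16 (1 mean per group over all 10 libraries, quasi-likelihood F test), with Benjamini-Hochberg adjustment over all genes tested. The SE of a log2 fold change is its size over the square root of F. The alternatives were DESeq2 1.42.0, relative log expression factors, library totals, the compared groups alone, 2 other filters for low counts, a replicate block, limma 3.58.1 on log2(FPKM + 1) and log2(FPKM + 0.1), voom with sample weights, and leaving out each library. The main test was also run on simulated counts whose spread was taken from these data, with some genes changed in either direction. That run did not test the choice between scalings. Figures were drawn with matplotlib 3.10.9.

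The members, the pathway lists, the motifs and the gene pairs for ratios were chosen with earlier results of these data known, so no p-value is given for a list. All 46 members could be named, those of each role with the smallest p at LC against AL were given in every library, and of each other list the gene with the smallest p could be named. Promoters came from RefSeq tables and overlapping genes from GENCODE M21, both of an older build and used for letters and names only. The Srpra and Camlg rows were not analysed here.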

Additional observations from a re-analysis of the deposited data

Results flagged for a closer look

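In the LC group, the only one of 4 samples, each member and the mean of each arm were examined for a library far from the others, and 2 of 48 sets of values stood apart, where chance gives about 1 in 20. Syvn1, the ligase HRD1, was at 109 CPM in LC replicate 1 and between 68.6 and 75.4 in the other LC libraries, a gap of 0.832 of the range of the group. Sec61g, the gamma subunit of the channel, was at 24.4 CPM in LC replicate 3 and between 38.9 and 41.6 in the others, a gap of 0.843 of the range. Neither gene was called at LC against AL.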

How the results depend on the processing

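None of the 20 alternatives tried reversed a called member. At LC against AL, 14 of the 29 called genes were called under all of them, and at RF against LC 17 of 25. At LC against AL the folding genes called lower numbered 9 by library totals, 8 by limma on log2(FPKM + 1) and 8 on log2(FPKM + 0.1), with medians of −0.29, −0.26 and −0.27. The entry genes called lower numbered 6 under each of these, with medians of −0.18, −0.20 and −0.21. Under the same settings, in that order, the entry median was 0.07, 0.06 and 0.07 at RF against AL and 0.38, 0.37 and 0.38 at RF against LC. The median of all genes was 0.36, 0.22 and 0.33 at LC against AL under them. DESeq2 called 1 folding gene lower at RF against AL. Leaving out 1 library at a time, the entry median at LC against AL ranged from −0.59 (without AL replicate 4) to −0.45, the folding count from 13 to 18 and the entry count from 9 to 13. The folding count at RF against LC ranged from 10 to 16, and at RF against AL no fit called a member. The labels give the groups shared replicate numbers and do not say whether the numbers pair the samples. Deviations of same-numbered LC and AL samples correlated at −0.046 to 0.047, of RF and AL samples at −0.028 and 0.015, and of RF and LC samples at 0.05 to 0.232, each of the latter correlating best with its own number. With the replicate block, 16 folding and 11 entry genes were called lower at LC against AL, 0 at RF against AL, and 16 and 11 higher at RF against LC. With 3 or 4 libraries a group, the smallest change called was −0.34 at LC against AL (Ssr4) and 0.36 at RF against LC (Sec63). Derl3, Sdf2l1 and Sec11c had the lowest CPM.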
